A study of Homo sapiens with 12 samples.

Results

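The genes described here are 9 liver genes that encode an oncofetal protein, a plasma carrier protein, or both: AFP, ALB, GPC3, TTR, TF, DLK1, AMBP, AHSG and RBP4. They were found by their gene name on the array, where 13 of 41000 gene probes and 9 of 29245 gene names belong to them. All 9 had a probe that passed the filter on dim probes, as did 24259 gene names in all. Their levels were compared between HuH-7 cells given SLMP53-2 at 28 µM or 42 µM and cells given the solvent DMSO.

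Hepatocytes make most of the carrier proteins of blood plasma and secrete them into the circulation. In fetal liver α-fetoprotein (AFP) is the main carrier, and around birth its gene is silenced while that of albumin (ALB) stays active. Liver tumour cells can switch AFP on again, together with other fetal products such as the surface proteoglycan glypican 3 (GPC3), and these serve as markers of hepatocellular carcinoma.

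HuH-7 is a human cell line derived from a hepatocellular carcinoma. All groups shared the p53 mutant Y220C, and SLMP53-2 was studied as a compound that restores function to mutant p53. RNA was taken after 24 h of DMSO, of 28 µM or of 42 µM SLMP53-2, and each treatment had 4 biological replicates, each on 1 array with 1 colour. The higher dose is 42 µM in the sample titles and 48 µM in other labels of the same samples, and it is called 42 µM here. The 12 samples are of this single line, and no line of other p53 status was analysed here.

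The 12 arrays were scanned on 5 slides, and between 65.0% and 85.0% of the gene spots of an array were well above background. Replicates of a treatment correlated at 0.962 to 0.991 over the probes. Of the 8 hepatocyte marker genes all were detected on all 12 arrays, though HNF4A was near the floor, with raw intensities of 137 to 187. Of the 8 markers of blood, endothelial, stromal and bile duct cells, PTPRC was detected on 2 arrays and KRT7 on 1, while the other 6 were detected on 11 or 12. Of those 6, PECAM1 and COL1A1 were near the floor, with raw intensities of 110 to 158 and 114 to 152. PTPRC had 97 to 140 and KRT7 94 to 144. Summed over these 8 markers of other cells, the normalized intensity was 2586 to 2981 with DMSO, 2294 to 3045 at the lower dose and 2009 to 2319 at the higher one. It was thus lower at 42 µM than in any DMSO array. At 42 µM LYZ differed from DMSO by -1.18 on the log2 scale (adjusted p = 0.0955, limma) and SOX9 by -0.46 (adjusted p = 0.0861). Summed over the 8 hepatocyte markers it was 34261 to 45211, 40877 to 43151 and 39723 to 48582, and the part of these markers in the values of the members was not tested. In bulk RNA, fewer cells with a transcript and less transcript per cell cannot be told apart.

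Each probe is a single strand of 60 bases. The probes of the genes that the results turn on are given here because each measures only the transcripts that hold its bases. For transferrin, the brightest probe and the next in brightness, called the dimmer one here, did not behave alike. Sequences and positions are those of the deposited array files, on hg19. In the ALB probe the capitals mark the stop codon of the reading frame.
AFP: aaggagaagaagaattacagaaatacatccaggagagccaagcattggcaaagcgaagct
ALB: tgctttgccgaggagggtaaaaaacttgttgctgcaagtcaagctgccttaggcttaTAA
GPC3: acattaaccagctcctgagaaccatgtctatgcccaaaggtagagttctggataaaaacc
DLK1: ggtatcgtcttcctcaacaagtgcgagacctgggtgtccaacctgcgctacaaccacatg
AMBP: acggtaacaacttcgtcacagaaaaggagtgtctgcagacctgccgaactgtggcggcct
TF, dimmer probe: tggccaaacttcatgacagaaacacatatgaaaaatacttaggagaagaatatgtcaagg

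The AFP probe lies at chr4:74315180-74315807 and the ALB probe at chr4:74285342-74286015, both on the plus strand, with 29164 bases between them, so the fetal and the adult carrier are read from neighbouring genes. The GPC3 probe lies at chrX:132730579-132795768 and the AMBP probe at chr9:116823373-116823757, both on the minus strand. These 4 spans are longer than the probe, so the probe crosses an exon junction. The DLK1 probe lies at chr14:101201048-101201107 and the dimmer TF probe at chr3:133495990-133496049, both on the plus strand and without a junction.

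None of the 9 genes was called as changed by SLMP53-2 at either dose. A gene is called here when its brightest probe passes an adjusted p of 0.05 and differs by 0.6 or more on the log2 scale, which is 1.52-fold. At 28 µM 0 of the 9 genes were called in limma, beside 0% of all 24259 genes, and 0 of the 9 had an unadjusted p below 0.05, beside 11.8% of all genes. The groups overlapped for all 9, while they did not for 5.72% of all genes. At 42 µM 0 of the 9 were called in limma, beside 3% of all genes, and 1 of the 9, AMBP, had an unadjusted p below 0.05, beside 16.1%. AMBP was also the 1 member whose 42 µM arrays did not overlap those of DMSO, beside 13% of all genes. Between the doses 0 of the 9 were called in limma, beside 0% of all genes, and 0 had an unadjusted p below 0.05, beside 2.59%. The arrays of the doses overlapped for all 9, while they did not for 1.6% of all genes. Both doses were compared with the same 4 DMSO arrays, so the comparisons with DMSO are not independent of each other.

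**Figure D1:**
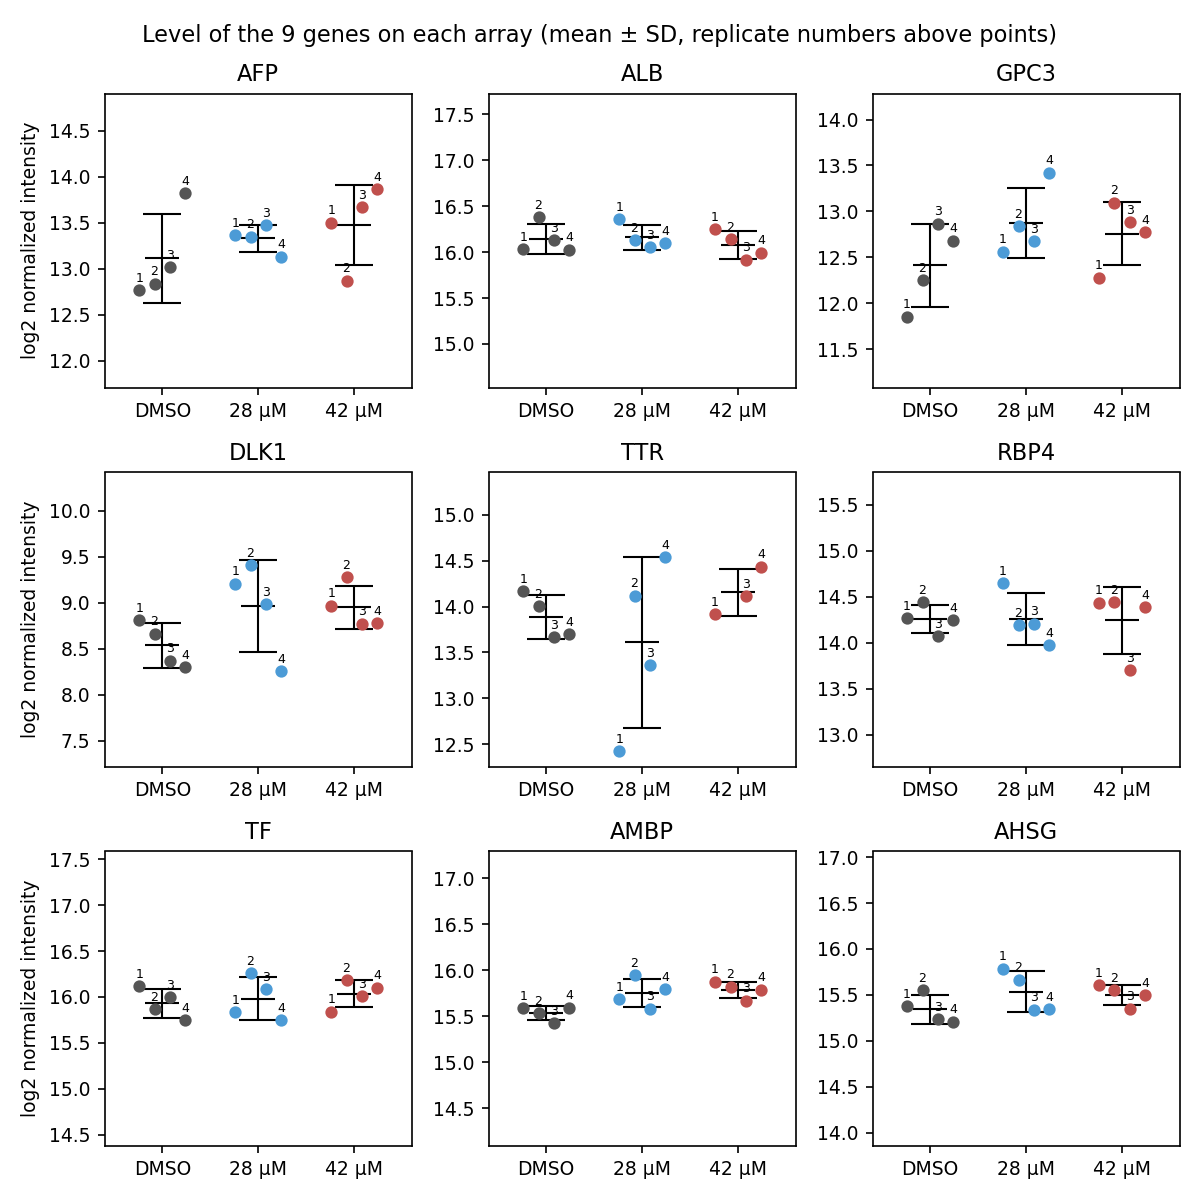
Normalized log2 intensity (y axis) of the 9 genes on each of the 12 arrays, with 1 point per array, grouped by DMSO, 28 µM and 42 µM, with replicate numbers above the points and bars for the mean ± SD of each group. The groups overlap for every gene except AMBP, where the 4 arrays at 42 µM lie above the 4 DMSO arrays.

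AFP, the fetal counterpart of albumin and the serum marker of liver cancer, was measured with 1 probe. Its normalized log2 intensity in the DMSO arrays was 12.77, 12.84, 13.02 and 13.82 (replicates 1 to 4). At 28 µM it was 13.37, 13.35, 13.47 and 13.13, and at 42 µM it was 13.50, 12.87, 13.67 and 13.87. DMSO replicate 4 stood apart from the other DMSO arrays and was exceeded only by 42 µM replicate 4, and the 3 groups overlapped.

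The mean of AFP was 13.11 ± 0.48 with DMSO (SD, n = 4), 13.33 ± 0.14 at 28 µM and 13.48 ± 0.43 at 42 µM. The log2 fold change was 0.22 at 28 µM (95% interval -0.30 to 0.73, adjusted p = 0.762, limma) and 0.37 at 42 µM (-0.15 to 0.88, adjusted p = 0.540). Without DMSO replicate 4 these values were 0.46 (adjusted p = 0.521) and 0.60 (adjusted p = 0.181). Neither difference exceeded the spread between replicates by this test, and the interval at 42 µM holds changes of up to 0.88. On the slides that held both treatments, the differences from DMSO were 0.71, -0.45 and 0.11 at 28 µM and -0.32, -0.15 and 0.83 at 42 µM, so the sign was not the same on every slide.

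GPC3, a heparan sulfate proteoglycan held on the cell surface by a lipid anchor, is made in fetal liver and again in many liver carcinomas. The log2 intensities were 11.85, 12.25, 12.87 and 12.68 with DMSO, 12.56, 12.84, 12.68 and 13.42 at 28 µM, and 12.28, 13.10, 12.89 and 12.77 at 42 µM. DMSO replicate 1 was the lowest of the 12 arrays and 28 µM replicate 4 the highest, and the groups overlapped. Against DMSO the log2 fold change was 0.46 at 28 µM (-0.07 to 0.99, adjusted p = 0.516, limma) and 0.34 at 42 µM (-0.19 to 0.87, adjusted p = 0.586). Without DMSO replicate 1 it was 0.27 and 0.16. Within slides the difference was 0.82, -0.12 and 0.55 at 28 µM and -0.40, 0.23 and 0.63 at 42 µM, and the slide term of GPC3 had an adjusted p of 0.304 in limma.

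DLK1, a transmembrane protein of the Notch ligand family that marks fetal liver progenitors, had raw intensities of 364 to 826. On the log2 scale it was 8.81, 8.67, 8.37 and 8.30 with DMSO, 9.21, 9.41, 8.98 and 8.25 at 28 µM, and 8.97, 9.28, 8.77 and 8.78 at 42 µM. At 28 µM replicates 1 to 3 were above all 4 DMSO arrays and replicate 4 was below all of them. Against DMSO the log2 fold change was 0.43 at 28 µM (-0.05 to 0.90, adjusted p = 0.506, limma) and 0.41 at 42 µM (-0.06 to 0.89, adjusted p = 0.417). Without 28 µM replicate 4 the value at 28 µM was 0.66 (adjusted p = 0.0681), and without 28 µM replicate 2 it was 0.28. Within slides it was 0.17, 0.91 and -0.12 at 28 µM and 0.67, 0.91 and 0.11 at 42 µM.

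ALB, the main protein of adult plasma and a carrier of fatty acids, hormones and drugs, varied little across the 12 arrays. Its log2 intensity was 16.03, 16.38, 16.13 and 16.02 with DMSO, 16.36, 16.13, 16.05 and 16.10 at 28 µM, and 16.25, 16.14, 15.92 and 15.99 at 42 µM. The whole range was 0.46, or 1.38-fold, and the groups overlapped. Relative to DMSO the log2 fold change was 0.02 at 28 µM (-0.25 to 0.28, adjusted p = 0.968, limma) and -0.06 at 42 µM (-0.33 to 0.20, adjusted p = 0.886). These intervals come from quantile normalization. With 75th percentile scaling of the processed signal the values were -0.21 (adjusted p = 0.711) and -0.24 (adjusted p = 0.629).

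**Figure D2:**
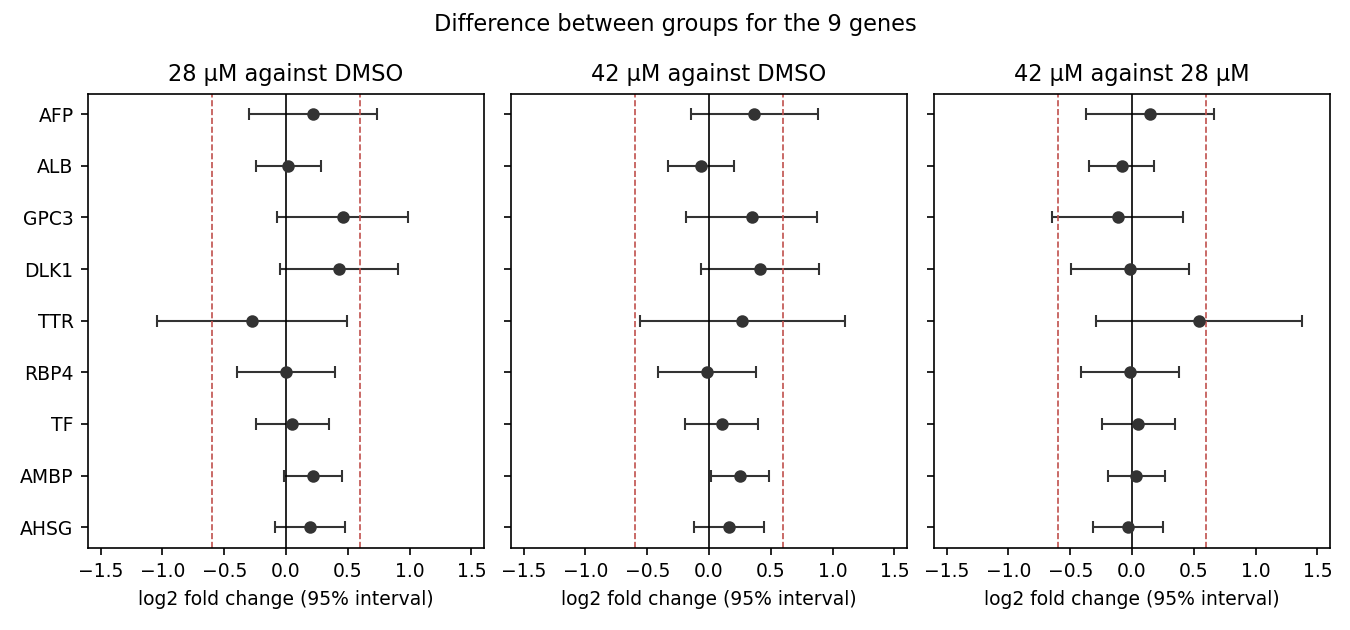
Log2 fold change (x axis) of the 9 genes at 28 µM against DMSO, 42 µM against DMSO and 42 µM against 28 µM, with the 95% interval of limma as the bar and dashed lines at 0.6 and -0.6. The interval of AMBP at 42 µM against DMSO (0.02 to 0.49) is the 1 that leaves out 0, and it reaches down to nearly 0.

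AMBP encodes a precursor that is cut into α1-microglobulin, a carrier that binds heme and radicals, and bikunin, a protease inhibitor. On the log2 scale its intensity was 15.58, 15.54, 15.42 and 15.59 with DMSO, 15.69, 15.95, 15.58 and 15.79 at 28 µM, and 15.87, 15.82, 15.67 and 15.79 at 42 µM. All 4 arrays at 42 µM were above all 4 DMSO arrays, which held for 5.94% of all genes in this direction. The log2 fold change at 42 µM was 0.25 (SE 0.11, 95% interval 0.02 to 0.49), or 1.19-fold, and the adjusted p of 0.271 in limma did not pass. At 28 µM it was 0.22 (-0.02 to 0.45, adjusted p = 0.482), with arrays that overlapped those of DMSO.

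The value of AMBP at 42 µM depended on the scaling. Over 27 other settings it lay between 0.08 and 0.29, and the lowest came from scaling each array to its 75th percentile (adjusted p = 0.954) in place of quantile normalization. On the 3 slides with both treatments the difference from DMSO was 0.28, 0.39 and 0.13. The spread of AMBP within groups was small, with a residual SD of 0.113 that was below that of all but 5.07% of genes. Among genes of like brightness 9.1% had a smaller SD.

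TTR, or transthyretin, carries thyroxine and, together with RBP4, retinol. Its log2 intensity was 14.17, 14.00, 13.67 and 13.70 with DMSO, and 12.43, 14.12, 13.36 and 14.54 at 28 µM. At 42 µM it was 13.92 in replicate 1, 14.11 in replicate 3 and 14.43 in replicate 4. The single TTR spot of 42 µM replicate 2 carried an outlier flag and was dropped, so n = 3 there. The 28 µM arrays held both the lowest and the highest value, on each side of all DMSO arrays.

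The log2 fold change of TTR was -0.27 at 28 µM (-1.04 to 0.50, adjusted p = 0.801, limma; -0.57 with the processed signal scaled to the 75th percentile) and 0.27 at 42 µM (-0.56 to 1.10, adjusted p = 0.835). With the flagged spot kept, 42 µM replicate 2 stood at 10.80 and the value at 42 µM was -0.56, so 1 spot sets its sign. Without 28 µM replicate 1 the value at 28 µM was 0.12, and without 28 µM replicate 4 it was -0.58. The residual SD of TTR, 0.601, was larger than that of 97.7% of genes.

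RBP4, the retinol carrier that travels in plasma bound to transthyretin, had log2 intensities of 14.26, 14.44, 14.07 and 14.24 with DMSO. They were 14.65, 14.19, 14.21 and 13.98 at 28 µM, and 14.44, 14.44, 13.70 and 14.39 at 42 µM. Replicate 3 at 42 µM was the lowest of the 12 arrays, while the other 3 of its group lay close together. The mean of RBP4 was 14.26 ± 0.15 with DMSO, 14.26 ± 0.28 at 28 µM and 14.24 ± 0.36 at 42 µM. The 95% interval of the log2 fold change was -0.40 to 0.39 at 28 µM (adjusted p = 0.999, limma) and -0.41 to 0.38 at 42 µM (adjusted p = 0.985). Without 42 µM replicate 3 the value at 42 µM was 0.17 in place of -0.015. With 75th percentile scaling of the processed signal the fold changes were -0.32 (adjusted p = 0.546) at the lower dose and -0.24 (adjusted p = 0.606) at the higher one.

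AHSG encodes fetuin A, which binds calcium phosphate and is abundant in fetal plasma. It had a pair of probes, and on the brighter one the log2 intensity was 15.37, 15.55, 15.24 and 15.21 with DMSO, 15.78, 15.67, 15.34 and 15.35 at 28 µM, and 15.61, 15.56, 15.35 and 15.50 at 42 µM. The groups overlapped. On this probe the log2 fold change was 0.19 at 28 µM (-0.09 to 0.47, adjusted p = 0.620, limma) and 0.16 at 42 µM (-0.12 to 0.44, adjusted p = 0.655). On the other probe it was 0.24 and 0.18, so the AHSG probes gave like values. On the brighter probe the value at 28 µM turned to -0.038 (processed signal) and -0.032 (Edwards correction) under 75th percentile scaling, and without 28 µM replicate 1 it was 0.11.

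TF encodes transferrin, the carrier of iron in plasma. On its brightest probe the log2 intensity was 16.11, 15.87, 15.99 and 15.75 with DMSO, 15.84, 16.26, 16.08 and 15.75 at 28 µM, and 15.84, 16.18, 16.01 and 16.10 at 42 µM. The range over the 12 arrays was 0.52, or 1.43-fold, and the groups overlapped. Relative to DMSO the log2 fold change was 0.05 at 28 µM (-0.25 to 0.35, adjusted p = 0.916, limma) and 0.10 at 42 µM (-0.19 to 0.40, adjusted p = 0.823). With the processed signal scaled to the 75th percentile these values were -0.27 and -0.15.

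The dimmer TF probe, whose bases lie 1499 bases from those of the brightest one, varied over a range of 2.09, or 4.27-fold, between the same arrays. Its log2 intensity was 8.43, 9.86, 8.46 and 10.27 with DMSO, 10.07, 9.20, 8.47 and 8.59 at 28 µM, and 9.86, 8.17, 9.46 and 10.26 at 42 µM. High and low arrays occurred in all 3 groups, and the residual SD of 0.867 was larger than that of 99.5% of genes. The log2 fold change was -0.17 at 28 µM (-1.27 to 0.93) and 0.18 at 42 µM (-0.92 to 1.29, adjusted p = 0.928, limma).

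The values of the dimmer TF probe moved with the slide. The slide mean was 8.45 on slide 1, 10.07 on slide 2, 9.73 on slide 3, 8.41 on slide 4 and 9.66 on slide 5. A slide term added to the model had an adjusted p of 0.0245 in limma, and such a term passed an adjusted p of 0.05 for 1.67% of all genes. On slide 3 the pair of arrays still differed, at 9.20 and 10.26. Within the 3 slides that held DMSO and 42 µM, the difference was -0.41, -0.29 and -0.40, against 0.18 over all arrays. With the slide as a fixed block the value at 42 µM was -0.16 (adjusted p = 0.854). For the brightest TF probe the slide term had an adjusted p of 0.548 in limma. What on the slides moved with the dimmer probe was not tested.

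**Figure D3:**
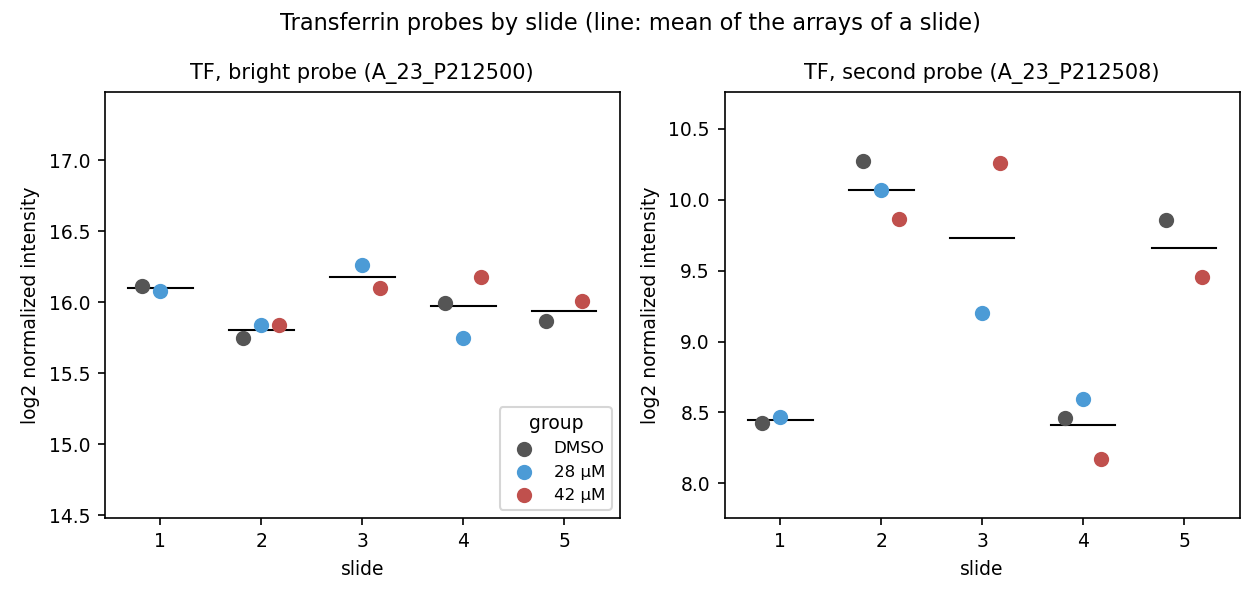
Normalized log2 intensity (y axis) of the brightest TF probe (left) and the dimmer TF probe (right) on each array, by slide (x axis, slides 1 to 5) and coloured by treatment, with a line at the mean of each slide. The brightest probe stays within 0.52 over the 12 arrays, while the dimmer probe has means of 8.45 and 8.41 on slides 1 and 4 and of 10.07 on slide 2.

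A further pair of probes carries the name TF for an Ensembl transcript. They were dimmer still, with log2 intensities of 6.22 to 7.14 and 6.38 to 7.01. Their log2 fold changes at 28 µM and 42 µM were 0.05 and 0.01 for one and -0.09 and -0.12 for the other. Neither was called.

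Between 28 µM and 42 µM the log2 difference was 0.15 for AFP (-0.37 to 0.66), -0.12 for GPC3 (-0.65 to 0.41) and -0.01 for DLK1 (-0.49 to 0.46). It was -0.08 for ALB (-0.35 to 0.18) and 0.04 for AMBP (-0.20 to 0.27). For TTR it was 0.54 (-0.29 to 1.37) with the flagged spot left out. No member passed the test between the doses in limma, and the intervals of AFP, GPC3 and TTR still hold differences above 0.6 in size.

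As a group, 7 of the 9 genes had a log2 fold change above 0 at 28 µM and 7 of 9 at 42 µM. Their medians were 0.19 and 0.25, beside -0.02 and -0.02 over all genes. Over all genes 11009 and 11098 of 24259 were above 0. With Edwards values scaled to the 75th percentile the member medians were -0.03 at 28 µM (3 of 9 above 0) and 0.07 at 42 µM (5 of 9). With the processed signal so scaled they were -0.04 (4 of 9) and 0.02 (6 of 9). At 42 µM the member median was 0.16 with the flagged TTR spot kept and 0.17 in the authors' values, each with 6 of 9 above 0. The scaling moved bright probes, as the 225 genes with a mean log2 intensity of at least 15 had a median of -0.03 at 28 µM after quantile normalization and -0.27 after 75th percentile scaling. At 42 µM those medians were -0.01 and -0.16. ALB, TF, AMBP and AHSG are among these bright genes. Of the members with means below 15, AFP, GPC3 and DLK1 had fold changes above 0 at both doses in all 27 other settings. None of them passed the test. Some settings, such as the filters on dim probes, cannot change a fold change, and all reuse the same arrays. The shared sign is thus no added evidence. Within slides the sign varied for AFP and GPC3 at both doses and for DLK1 at 28 µM. TTR and RBP4 also have means below 15, with -0.27 and -0.0005 at 28 µM and 0.27 and -0.015 at 42 µM. Over the 27 settings TTR turned sign in 1 at 28 µM and 2 at 42 µM, and RBP4 in 5 and 2. The size also moved with the scaling for AFP and GPC3. At 28 µM and 42 µM, 75th percentile scaling after the Edwards correction gave 0.04 and 0.15 for AFP and 0.33 and 0.17 for GPC3. DLK1 had 0.42 and 0.43 in that setting.

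No member was at the ceiling of the scanner. The saturation value was 778732 to 778782 by array, and 0 gene spots were flagged as saturated on any array. The highest raw intensity of a member was 95547, for ALB in 28 µM replicate 1, which was 12.3% of saturation, while the brightest gene spot of each array reached 17.3% to 23.0%. By array, ALB lay at 6.69% to 12.3% of saturation, TF at 6.98% to 10.1%, AMBP at 5.58% to 8.31% and AHSG at 4.50% to 7.92%. RBP4 lay at 1.35% to 3.70%, AFP at 0.843% to 2.09% and GPC3 at 0.427% to 1.89%, while DLK1 lay at 0.0467% to 0.106%. A ceiling short of the flag, such as a probe whose bound target no longer grows with the transcript, was not tested.

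**Figure D4:**
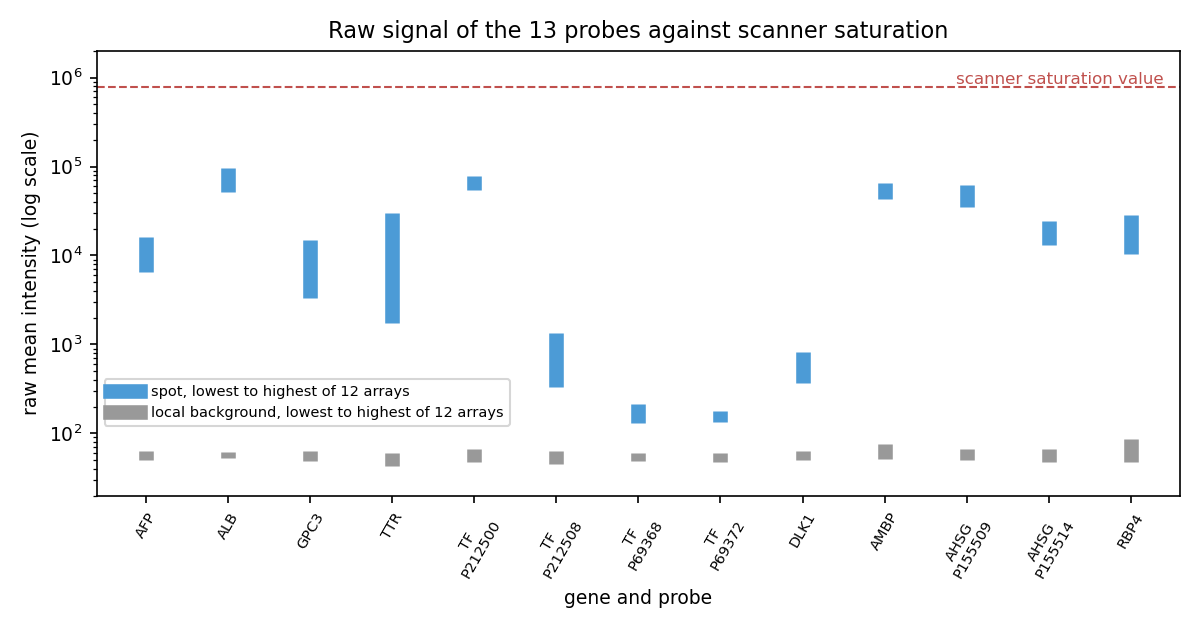
Raw mean intensity (y axis, log scale) of the 13 member probes, with a bar from the lowest to the highest of the 12 arrays for the spot (blue) and for its local background (grey), and a dashed line at the saturation value. The highest bar ends at 95547 for ALB, and no bar reaches the dashed line.

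Genes that work with the members were taken from lists drawn up with earlier results of these data known. At 28 µM 0 genes of the 6 lists were called in limma, beside 0% of all genes. An unadjusted p below 0.05 was reached by 11.8% of all genes. In each list 2 genes reached it, except the glypican and Notch partners, which had 0. Among the listed genes with such a p, those with a log2 difference of over 0.5 in size at this dose were HP (-1.30), CEBPB (0.90), DHRS3 (0.75), ALDH1A1 (0.54) and HAMP (0.53), with adjusted p from 0.230 to 0.358. The rest were HMGA2 (-0.49), TFR2 (-0.46), MDK (0.45), the plasma carrier ORM1 (0.31) and FOXA1 (-0.30). Their adjusted p in limma ran from 0.294 to 0.446. Without 28 µM replicate 4, HP was called lower and CEBPB and DHRS3 higher at 28 µM, and still none of the 9 members was. At 42 µM the other plasma carriers had a median log2 fold change of -0.11 over 13 tested of 14, with 3 above 0 and 1 called lower. The other oncofetal genes had a median of -0.13 over 16, with 4 above 0 and 1 called lower. The 16 regulators of AFP and ALB had a median of 0.01, with 8 above 0 and 1 called higher. These medians stand beside -0.02 over all genes. Some listed genes were dim: SERPINA7, SHBG, FETUB, TCN2, H19 and HNF4A had DMSO means of 6.14 to 7.12 on the log2 scale. The counts stand beside 3% of all 24259 genes called at 42 µM, with 381 higher and 346 lower.

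The called plasma carrier was HP, haptoglobin, which binds free hemoglobin. Its log2 intensity was 9.46, 10.19, 9.79 and 10.17 with DMSO, 8.42, 7.87, 8.06 and 10.06 at 28 µM, and 7.64, 7.73, 7.76 and 8.16 at 42 µM. It fell by 2.08 on the log2 scale at 42 µM (SE 0.37, adjusted p = 0.0157, limma), with all 4 arrays below all DMSO arrays. Replicate 4 at 28 µM lay among the DMSO arrays. The call was lost without DMSO replicate 2 (-1.98, adjusted p = 0.0602), without 42 µM replicate 2 (-2.05, adjusted p = 0.0652) and with the slide as a fixed block (-2.16, adjusted p = 0.0601). The other 5 called genes of the lists, CEBPB, HMGA2, DHRS3, ALDH1A1 and JAG1, also lost their call in each of these settings. Over all probes only 0, 0 and 1 were called in these settings, against 888, so the loss was not particular to these genes. All 6 were called with the slide as a random block. HP has a close copy, HPR, and the array may not tell them apart.

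CEBPB, a liver transcription factor of the acute phase, was 11.62, 11.65, 11.51 and 11.45 with DMSO, 13.09, 12.66, 12.67 and 11.43 at 28 µM, and 13.58, 13.39, 12.56 and 12.48 at 42 µM. It rose by 1.44 at 42 µM (SE 0.32, adjusted p = 0.0304, limma). HMGA2, a chromatin protein of fetal tissue and tumours, fell by 0.79 (adjusted p = 0.0275), from 11.92, 12.27, 11.99 and 11.92 with DMSO to 11.19, 10.81, 11.41 and 11.55 at 42 µM. For both genes the groups at DMSO and 42 µM did not overlap. Omission of any of 6 single arrays ended the call of either gene, and over 30 other settings the adjusted p was at most 0.118 for CEBPB and 0.0979 for HMGA2. FOXA1, a pioneer factor of liver genes chosen after its values were seen, had -0.50 (adjusted p = 0.0219), which is under the fold limit.

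For the partners of TF, the 14 genes of iron handling had a median of -0.14 at 42 µM with 6 above 0. In limma 0 of them were called, beside 3% of all genes. Smallest in unadjusted p were HAMP, the iron hormone hepcidin, at 0.58 (adjusted p = 0.159, limma) and TMPRSS6, the protease that restrains it, at -0.28 (adjusted p = 0.195). For the partners of RBP4 and TTR, 13 tested of 14 genes of retinoid handling had a median of 0.10, with 7 above 0. Of these genes 2 were called higher, beside the same 3%. DHRS3, which reduces retinaldehyde, rose from 11.47 ± 0.24 to 12.46 ± 0.26 (SD, n = 4, adjusted p = 0.0264, limma), and ALDH1A1, which makes retinoic acid, rose by 0.83 (12.77 ± 0.37 to 13.60 ± 0.17, adjusted p = 0.0210). Omission of any of 7 single arrays ended the call of DHRS3 and of any of 3 that of ALDH1A1, and over the same settings the adjusted p was at most 0.106 and 0.104.

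For the partners of GPC3 and DLK1, 15 tested of 16 genes of the glypican and Notch pathways had a median of -0.08 with 5 above 0. Of these genes 1 was called lower, beside 3% of all genes called either way. JAG1, a Notch ligand, fell by 0.62 (8.88 ± 0.09 to 8.26 ± 0.28, adjusted p = 0.0486, limma), and omission of any of 9 single arrays ended the call. The 8 hepatocyte markers had a median of -0.00 with 0 called, and the smallest unadjusted p in limma among them was that of FGG, the fibrinogen γ chain, at 0.30 (adjusted p = 0.324).

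**Figure D5:**
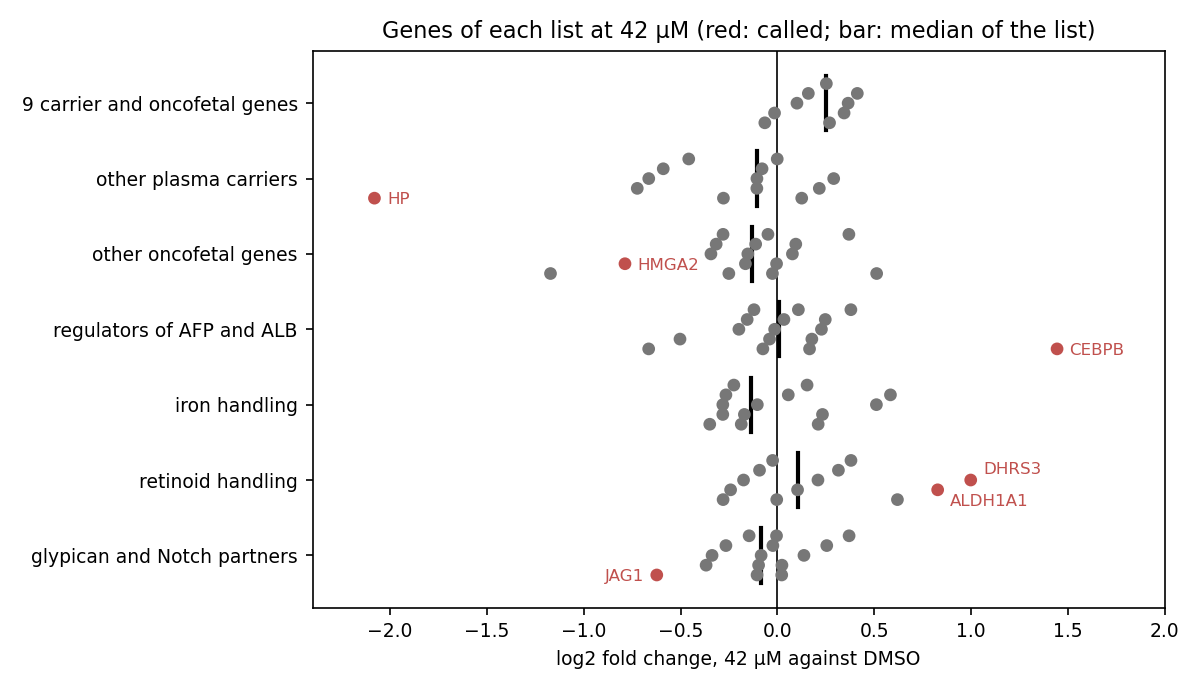
Log2 fold change at 42 µM against DMSO (x axis) of the genes of each list, with 1 point per gene, called genes in red with their names, and the median of each list as a bar. The members have 0 called genes and a median of 0.25. With 75th percentile scaling that median is 0.07 for Edwards values and 0.02 for the processed signal. HP lies farthest to the left at -2.08 and CEBPB farthest to the right among the called genes at 1.44.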

How the data were processed

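RNA of HuH-7 cells was measured on 12 Agilent whole human genome arrays of 1 colour. The authors scanned them and deposited the output of Feature Extraction 10.7.3.1 (per the file headers), with the mean intensity, local background and flags of 45015 spots per array, and a table of log2 values that the authors had background-corrected and quantile normalized, used here as an alternative.

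From the scanner files, control and outlier-flagged spots were left out, the Edwards background correction and then quantile normalization were applied to the intensities with limma 3.58.1 in R 4.3.3 as in the study's methods, values were taken to log2, and the spots of a probe were averaged. Probes well above background on fewer than 2 of 4 arrays in every group were dropped, which left 33476 of 41000. limma was fitted to all 12 arrays with 3 groups, with two-sided tests and Benjamini-Hochberg adjustment over 33476 probes, and was tested on simulated data. The brightest probe stands for a gene. The limit of 0.6 is that of the study's results, and the methods' limit of 2-fold was an alternative, as were other background corrections, scalings, filters, blocks and single arrays left out. Arrays have no read depth, so their number limits the precision.

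Named are all members with every probe, the called genes of each list (at most 4) or, where none was called, up to 2 genes with the smallest unadjusted p. The 9 members and the lists were chosen with earlier results of these data known. RefSeq accessions named 68.5% of probes, and the others kept the array's name. Figures were drawn with matplotlib 3.10.9.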

Additional observations from a re-analysis of the deposited data

Results flagged for a closer look

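RBP4 at 42 µM had 1 array far from the other 3: replicate 3 stood at 13.70, and its gap to the nearest array divided by the range of the group was 0.932, above Dixon's 95% critical value for 4 samples. It was the 1 such group of 38 tested, and chance marks about 1 in 20 groups.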

How the results depend on the processing

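In limma 0 of the 9 members were called in all 3 comparisons under each of 30 other settings. Between the doses no probe of the array was called in any setting, so no member could be. At 28 µM none was called over all probes except 2 with the replicate block and 717 (2.14%) without 28 µM replicate 4. At 42 µM the share over all probes lay between 0% and 4.09% by setting. Of the fold changes, those of bright probes turned sign at 28 µM when arrays were scaled to the 75th percentile, with the processed signal and the Edwards values giving -0.21 and -0.23 for ALB, -0.27 and -0.22 for TF, and -0.038 and -0.032 for AHSG. Edwards values so scaled gave -0.011 for AMBP at 28 µM. At 42 µM TF was -0.15 and -0.11. Over the 27 settings ALB and TF each turned sign at 28 µM in 6, so not only under this scaling. Their values at 28 µM in the main setting, 0.02 and 0.05, were small. TTR at 42 µM was -0.56 with the flagged spot kept, an alternative chosen after seeing the data, and -0.64 in the authors' values, and against 28 µM it was -0.29 and -0.36. With the replicate number as a block 0 members were called in limma, and GPC3 at 28 µM had an unadjusted p of 0.0286 in limma and DLK1 p of 0.0157 at 28 µM and 0.0185 at 42 µM. With this replicate block 2 probes were called at 28 µM and 1369 at 42 µM, against 0 and 888. The deviations of same-numbered arrays from their group means correlated at -0.46 to 0.62, not above 0.1 for every pair in any comparison, so the number was not taken as a pairing. The calls at 42 µM over all probes rested on few arrays: 888 became 0 without DMSO replicate 2 or 42 µM replicate 2 and between 259 and 889 without another array of those groups, 1 with the slide as a fixed block, 1119 with the slide as a random block and 365 with a log2 limit of 1. Without 28 µM replicate 4, 717 probes were called at 28 µM and 1224 at 42 µM, with no member among them. HP, CEBPB, HMGA2, DHRS3, ALDH1A1 and JAG1 all lost their call without DMSO replicate 2, without 42 µM replicate 2 and with the slide block. Of 30 settings HP lost its call in 3, ALDH1A1 in 8, CEBPB and HMGA2 in 9, DHRS3 in 11 and JAG1 in 17. The cause was not tested. The 4 arrays per group limit the precision. The brightest probe of every member was well above background on all arrays, with the flagged TTR spot of 42 µM replicate 2 not counted. That spot was left out for its flag and was not dim, with a raw intensity of 1725 over a local background of 45.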

Other observations

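The genes whose log2 values were most like those of AFP over the 12 arrays, among 24216 compared, were C1orf216 (Pearson's r = 0.89), RPS2P32 (0.88) and the unnamed probe A_24_P106166 (0.88). For ALB they were TBP (0.91), the unnamed probe A_32_P125416 (0.90) and ENST00000496596 (0.89). These are the highest of many values, the arrays share slides and normalization, and they are given as a description.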
